A study of Mus musculus and Acomys cahirinus with 2 samples.

Results

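The 10 epidermal layer keratins Krt1, Krt2, Krt5, Krt10, Krt14, Krt15, Krt16, Krt17, Krt77 and Krt79 were taken from both gene lists by symbol, with letter case ignored. All 10 were among the 28692 genes of the Mus list, and 8 were among the 24509 genes of the Acomys list. Krt2 and Krt14 have no symbol in the Acomys list, so they are given for Mus alone. The other 33 Acomys and 41 Mus keratin symbols were kept as the rest of the family. The cells came from ear skin of adult Acomys cahirinus, the spiny mouse, whose ear holes can close by new tissue, and of adult Mus musculus, the house mouse. Each species has 1 droplet library, marked day 0, and the series describes the ears as injured. Strain, sex, number of animals and treatment are not given in the labels for either library, and no allele is named. A difference between the libraries therefore joins species, animal, library and reference annotation, which cannot be told apart, and no test was made.

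Keratins are the intermediate filament proteins of epithelia, and a filament needs a type II chain and a type I chain. Basal keratinocytes, which divide and sit on the basement membrane, are known for the pair of Krt5 (type II) and Krt14 (type I), with Krt15 as a further type I chain. Cells that leave the basal layer are known to switch to Krt1 (type II) and Krt10 (type I), and Krt2 (type II) joins them in the upper layers and is known to be abundant in mouse ear epidermis. Krt16 and Krt17 (type I) are known from skin appendages and from stressed epidermis, and Krt79 (type II) from the upper hair follicle and the sebaceous duct of the mouse.

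In the mouse genome the type II members Krt1, Krt2, Krt5, Krt77 and Krt79 lie on chromosome 15 and the type I members Krt10, Krt14, Krt15, Krt16 and Krt17 on chromosome 11 (RefSeq, GRCm38.p6). The promoter stretches of 1 basal member and of the suprabasal members that go together in Mus cells are shown, because Krt10 and Krt2 follow the same cells from different chromosomes while Krt5 marks the opposite side. Each is the 200 bases before the RefSeq start on the minus strand, Krt5 at chr15:101712906-101713105, Krt10 at chr11:99389365-99389564 and Krt2 at chr15:101818170-101818369, with the letters TATAA in capitals.
Krt5: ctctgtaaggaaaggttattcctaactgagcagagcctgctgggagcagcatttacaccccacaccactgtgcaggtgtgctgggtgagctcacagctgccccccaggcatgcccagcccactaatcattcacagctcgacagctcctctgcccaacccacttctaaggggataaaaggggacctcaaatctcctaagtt
Krt10: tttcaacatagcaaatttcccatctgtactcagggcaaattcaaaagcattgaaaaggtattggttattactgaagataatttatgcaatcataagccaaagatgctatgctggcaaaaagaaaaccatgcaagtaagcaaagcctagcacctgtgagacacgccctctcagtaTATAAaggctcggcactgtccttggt
Krt2: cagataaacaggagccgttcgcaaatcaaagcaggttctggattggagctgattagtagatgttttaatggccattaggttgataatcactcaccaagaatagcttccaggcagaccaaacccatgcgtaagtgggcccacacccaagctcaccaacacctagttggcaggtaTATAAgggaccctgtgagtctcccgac
The letters TATAA, searched on both strands, begin 26 bases before the start of Krt10 and 27 bases before that of Krt2 and are not in the Krt5 stretch. The stretches of Krt14, Krt77 and Krt79, the other members with a stretch at hand, lack these letters too. Only exact letters were searched, so near matches are not counted. TATAA occurs in 18.5% of 32851 mouse promoter stretches of that length. The AP-1 letters TGANTCA (5.48% of promoters) and the AP-2 letters GCCNNNGGC (11.8%), searched the same way, are in none of the 3 stretches shown. Such matches describe the letters and are not evidence of a bound factor.

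The Acomys library held 71042559 UMIs (unique molecular identifiers, each marking 1 captured transcript) and the Mus library 130039670. After filtering, 4603 Acomys cells had a median of 7557 UMIs and 6556 Mus cells a median of 11784, and 31 cell barcodes occurred in both. Cells were clustered without any keratin gene and named from other markers, so that the keratins could be read against layers they did not define. This gave 1090 Acomys and 3005 Mus basal keratinocyte-like cells, 1049 and 1292 suprabasal-like cells, 51 and 165 granular-like cells, and 613 and 910 hair follicle-like cells. The marker lists included Itga6 and Col17a1 for basal, Krtdap and Mt4 for suprabasal and Cdsn and Klk7 for granular cells. Unnamed clusters held 1249 Acomys and 803 Mus cells. Levels are in CPM, a gene's UMI count scaled to the same total in every set of cells, over the 15710 symbols found in both lists, and a 3′ UMI count needs no division by gene length.

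Keratin transcripts also lay outside keratinocytes. Endothelium-like cells, which should lack these genes, held Krt10 at 10821 CPM in Acomys (99 cells, median 3430 UMIs) and 4585 CPM in Mus (43 cells, median 5554 UMIs). All of them had a Krt10 UMI in both libraries. The ratio of Krt10 to Krt5 was 3.88 in Acomys and 4.01 in Mus endothelium-like cells, against 3.40 and 3.88 in barcodes of 1 to 10 UMIs. Other pairs differed more between these sets. Krt15 to Krt5 was 0.720 in endothelium-like cells against 0.344 in those barcodes of Acomys, and Krt17 to Krt5 1.07 against 0.605. In Mus, Krt10 to Krt1 was 4.96 against 17.7, Krt2 to Krt1 2.63 against 10.3 and Krt17 to Krt5 0.0881 against 0.261. A level at or below the endothelium-like level is read here as background, and the source of those transcripts was not tested. The endothelium-like cells were shallower than the other cells, whose median was 7641.5 UMIs in Acomys and 11810 in Mus. The part of depth in this reading was not tested either.

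The members took most of the keratin transcripts that carry a symbol in each library. Keratins with a symbol made 4.48% of cell UMIs in Acomys and 4.91% in Mus, and the members held 97.5% and 98.7% of those keratin UMIs. The Acomys sums lack Krt2 and Krt14, which made 0.904% and 1.57% of cell UMIs in Mus. The shares of the 2 libraries are therefore not compared. Krt10 was the most abundant gene of each library, at 3.10% of cell UMIs in Acomys and 1.63% in Mus. In Mus, Krt14 ranked 2 among all genes at 25285 CPM (25243.7 to 25327) and Krt2 ranked 7 at 14552 CPM. The rarest member was Krt77, with 53.9 CPM in the Acomys cells and 55.1 CPM in the Mus cells. Intervals in parentheses are exact, at 95%, and reflect counting error alone.

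Between the libraries, the basal members lay close together and the largest ratio belonged to Krt17. Krt5 stood at 5908 CPM in the Acomys cells against 5520 CPM in the Mus cells, a ratio of 1.07 (1.06 to 1.08), and Krt15 at 4263 against 4107 CPM, a ratio of 1.04. Among suprabasal members, Krt1 reached 3396 CPM in Acomys, against 1124 CPM in Mus, which gives a ratio of 3.02 (2.99 to 3.05). Krt10 reached 46292 against 26299.7 CPM, a ratio of 1.76, and Krt77 had a ratio of 0.978 (0.918 to 1.04).

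The appendage and stress members spread more widely. Krt17 reached 3945 CPM in Acomys, against 459 CPM in Mus, which gives a ratio of 8.60 (8.48 to 8.72). Krt79 reached 1299 against 438 CPM, a ratio of 2.97, and Krt16 reached 174 against 153 CPM, a ratio of 1.14.

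At a threshold of 2-fold, 3 of the 8 members with a symbol in both lists were higher in Acomys (Krt1, Krt17 and Krt79) and 0 were lower. Of the 7570 shared symbols of at least 10 CPM in either library, 14.2% were at least 2-fold higher in Acomys and 37.4% at least 2-fold lower. The median log2 ratio was 0.50 over the 8 members and -0.41 over those symbols. Krt16 and Krt17 resemble Krt14 closely, and Acomys reads of a Krt14 copy without a symbol could count towards them, which was not tested.

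**Figure D1:**
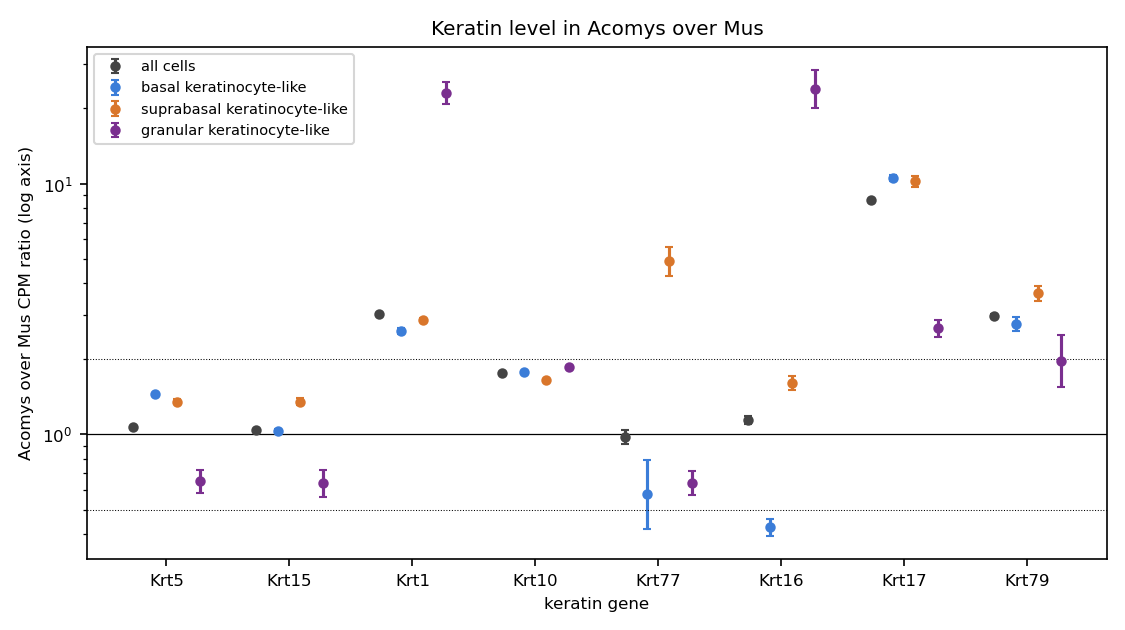
Ratio of Acomys to Mus CPM (log axis) for the 8 keratins with a symbol in both lists, in all cells and in 3 keratinocyte classes. Points are ratios, bars are exact 95% intervals from counting error, the solid line marks a ratio of 1 and dotted lines mark 2-fold. Krt10 stays between 1.65 and 1.85 in every set shown, whereas Krt1 and Krt16 reach 23.0 and 23.8 in granular-like cells. The Mus granular-like Krt1 level is below the Mus endothelium-like level, and the Acomys granular-like class has 51 cells.

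The ratio depended on the layer for some members. Krt10 was at 1.77 times the Mus level in basal-like, 1.65 times in suprabasal-like and 1.85 times in granular-like cells. Krt1 was at 2.59 times in basal-like and 2.87 times in suprabasal-like cells, but at 23.0 times (20.8 to 25.5) in granular-like cells. The Mus Krt1 levels in basal-like (511 CPM) and granular-like cells (183 CPM) lay below the Mus endothelium-like level of 924 CPM. The Acomys granular-like class had 51 cells, with a median of 1 Krt1 UMI once thinned to 2500 UMIs. Krt17 was at 10.5 times in basal-like and 10.2 times in suprabasal-like cells, and at 29.6 times in endothelium-like cells, so the background level itself was higher in Acomys.

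The basal members marked the basal-like clusters of both species. Krt5 stood at 1455 CPM in suprabasal-like against 13524 CPM in basal-like Acomys cells, and at 1077 against 9374 CPM in Mus. The log2 difference was -3.22 in Acomys and -3.12 in Mus. Krt15 behaved alike, at 729 CPM in suprabasal-like against 6211 CPM in basal-like cells of Acomys (log2 -3.09) and at 541 against 6014 CPM in Mus (log2 -3.47). Krt14, the type I partner of Krt5, stood at 3736 CPM in suprabasal-like and 46396 CPM in basal-like Mus cells (log2 -3.63). The suprabasal-like levels of Krt5, Krt15 and Krt14 all lay below their endothelium-like levels (2791 and 2011 CPM in Acomys for Krt5 and Krt15, and 1143, 1244 and 4692 CPM in Mus), so as a class the suprabasal-like cells were at background.

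The suprabasal members showed the reverse. Krt10 stood at 107909 CPM in suprabasal-like and 8886 CPM in basal-like Acomys cells (log2 3.60), and at 65304 and 5022 CPM in Mus (log2 3.70). Krt1 stood at 6824 and 1321 CPM in Acomys (log2 2.37) and at 2380 and 511 CPM in Mus (log2 2.22). Krt2 stood at 36501 and 3252 CPM in Mus (log2 3.49). The basal-like Krt10 level lay below that of endothelium-like cells in Acomys and slightly above it in Mus. Of single basal-like cells thinned to 2500 UMIs, 9.54% in Acomys (7.86 to 11.4) and 25.8% in Mus (24.2 to 27.4) exceeded the 95th percentile of endothelium-like cells for Krt10. That percentile was 25.4 UMIs in Acomys, from 99 cells, and 8.9 UMIs in Mus, from 43 cells, so the 2 shares are not compared.

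In all, 3 of 8 members in Acomys (Krt1, Krt10, Krt77) and 3 of 10 in Mus (Krt1, Krt2, Krt10) were at least 2-fold higher in suprabasal-like than in basal-like cells. Of all genes of at least 10 CPM in either class, 6.44% in Acomys and 6.07% in Mus were. At least 2-fold lower were 3 of 8 members in Acomys (Krt5, Krt15, Krt17) and 5 of 10 in Mus (Krt5, Krt14, Krt15, Krt16, Krt17), against 21.5% and 16.1% of genes. The median gene had a log2 difference of -0.44 in Acomys and -0.34 in Mus. For the members in both lists, Krt5, Krt10, Krt1 and Krt17 had values at most 0.148 log2 units apart between the species. Krt77 (3.06) and Krt16 (1.91) were the farthest apart, which was not tested. Without doublet removal Krt77 had 2.56 in both species, and at clustering resolution 0.5 it had 1.498 in Acomys and 2.35 in Mus.

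**Figure D2:**
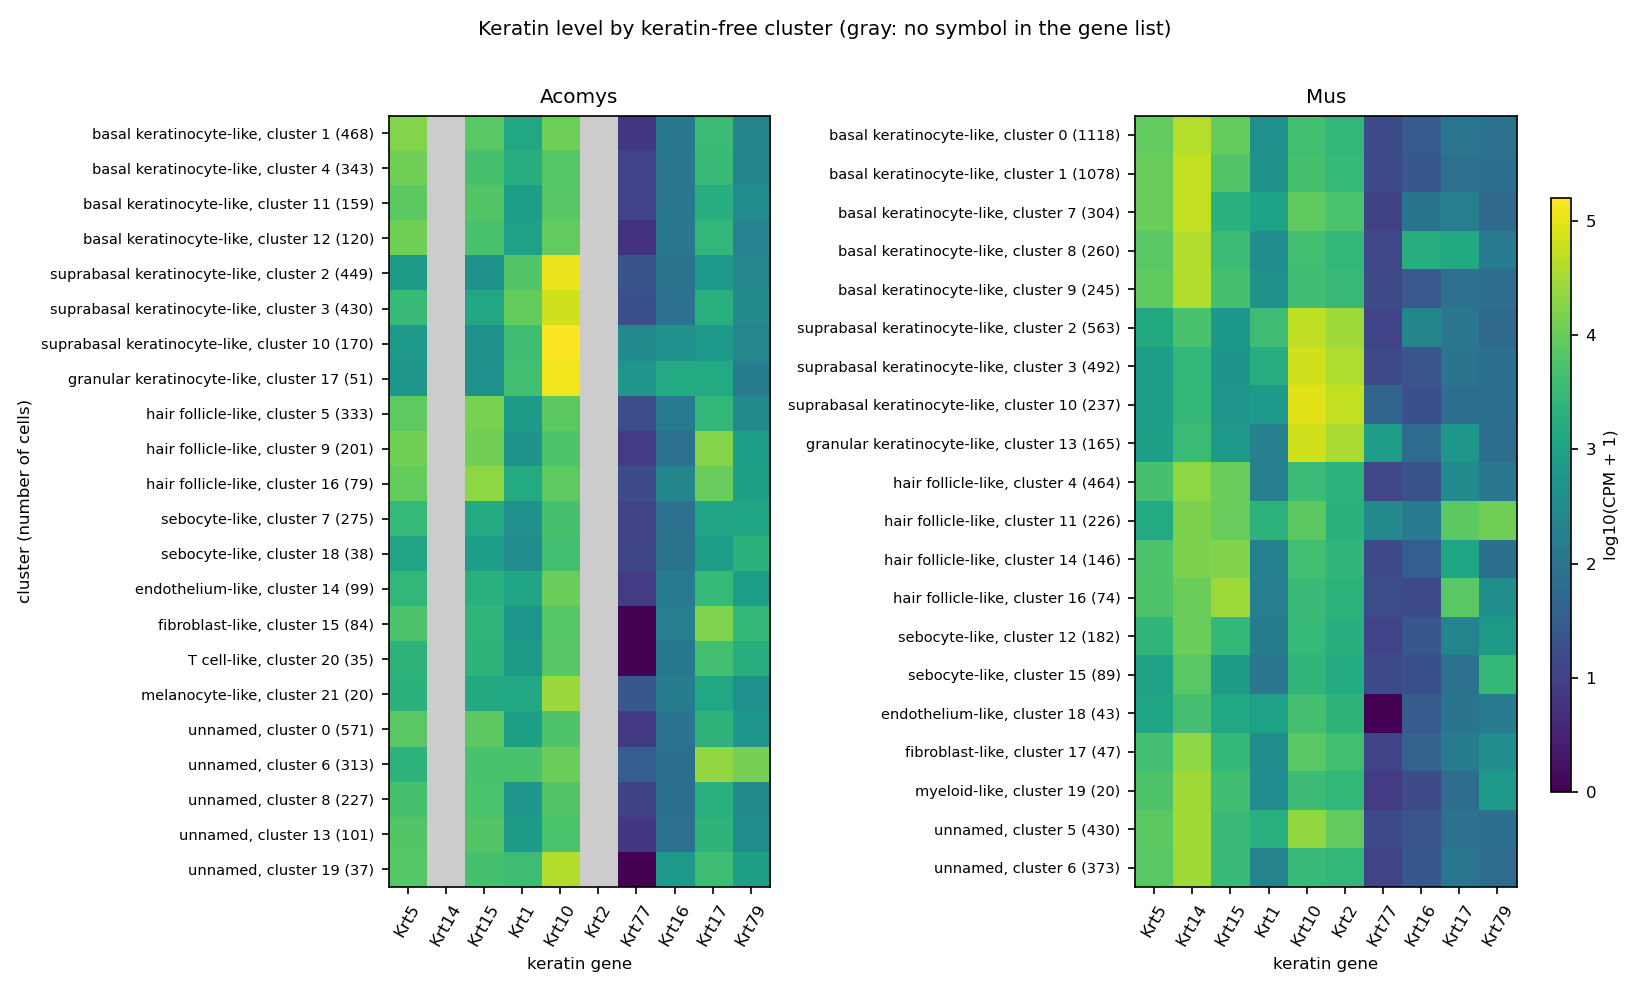
Level of each keratin, as log10(CPM + 1), in every cluster of Acomys (left) and Mus (right). Rows are clusters with their number of cells, columns are keratins, and gray marks genes without a symbol. Krt5 and Krt15 are bright in basal-like and follicle-like rows, and Krt10 in suprabasal-like and granular-like rows.

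The granular-like cells separated the suprabasal members from each other. Krt10 kept its level, at 124333 CPM in granular-like against 107909 CPM in suprabasal-like Acomys cells and at 67163 against 65304 CPM in Mus. Krt2 did likewise in Mus, at 34380.0 against 36501 CPM. Krt1 was lower in the granular-like class in both species, by 0.69 on the log2 scale in Acomys (4219 against 6824 CPM) and by 3.70 in Mus (183 against 2380 CPM). The ratio of Krt10 to Krt1 UMIs was thus 29.5 in Acomys and 366 in Mus granular-like cells, against 15.8 and 27.4 in suprabasal-like cells. The granular-like Krt1 level in Mus is below the endothelium-like level of 924 CPM, and only 3.03% of those cells (0.991 to 6.93) exceeded the 95th percentile of endothelium-like cells once every cell was thinned to 2500 UMIs. In Acomys 25.5% did (14.3 to 39.6, 51 cells), and the median cell held 1 Krt1 UMI.

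Krt77, a type II keratin known in human skin from sweat gland ducts, was higher in the granular-like class than in the other layers of both species. It stood at 527 CPM in granular-like and 90.9 CPM in suprabasal-like Acomys cells, and at 824 and 18.6 CPM in those of Mus. In endothelium-like cells Acomys had 7.26 CPM and Mus 0 CPM. After thinning, 17.6% of granular-like Acomys cells (8.40 to 30.9) and 29.1% of granular-like Mus cells (22.3 to 36.7) held a Krt77 UMI. In endothelium-like cells the share was 2.02% in Acomys and 0 of 43 cells in Mus, which allows up to 6.98% by 3 counts and 8.22% by the exact interval. Among members, Krt77 and Krt16 in Acomys and Krt77 and Krt17 in Mus were at least 2-fold higher in granular-like than in suprabasal-like cells, where 11.6% and 11.8% of genes were. Krt5 in Acomys and Krt1 in Mus were at least 2-fold lower, where 31.4% and 25.5% of genes were. The Acomys suprabasal-like level of Krt77 rests on 1 cluster of 170 cells with equal marker counts for the suprabasal and granular classes. Without that cluster, a setting chosen after seeing the data, the suprabasal over basal log2 difference of Krt77 was 1.40 in place of 3.59.

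A layer order made from basal, suprabasal and granular markers other than keratins placed 2761 Acomys and 4892 Mus cells, the 3 layer classes and 1 unnamed cluster each, in 10 groups of equal size, from the basal end (group 1) to the granular end (group 10). Its marker sums were dominated by Krtdap and Lgals7, which made 52.3% and 34.4% of the suprabasal and granular marker UMIs in Acomys and 40.6% and 30.9% in Mus. Krt5 held between 10700.5 and 12234 CPM over groups 1 to 6 in Acomys, then 4746 CPM in group 7 and 586 CPM in group 10. In Mus it held between 8927 and 10256 CPM over groups 1 to 6, then 7946 CPM in group 7, 1913 CPM in group 8 and 768 CPM in group 10. Most of the decline lay between groups 6 and 8 in both species.

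Krt10 moved the opposite way over the same groups. It stood at 6539 CPM in group 1, 18102 CPM in group 6, 56927 CPM in group 7 and 129634 CPM in group 10 in Acomys. In Mus it stood at 4096 CPM in group 1, 7110.25 CPM in group 6, 19752 CPM in group 7 and 75894 CPM in group 10. Krt2 followed Krt10, at 2695 CPM in group 1 and 41762 CPM in group 10. Krt1 instead was highest in group 8 of both species, with 7383 CPM in Acomys against 3302 CPM in Mus, and stood at 5055 and 1045 CPM in group 10. In Acomys groups 7 to 9 were nearly level, between 7236 and 7383 CPM. Median UMIs per cell were also higher at the granular end, at 18079 in Acomys and 22422 in Mus in group 10 against 6789 and 9372.5 in group 1, and their part in these levels was not tested.

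Krt15 departed from Krt5 inside the basal stretch in Mus. Its Mus level was 9195 CPM in group 1 and 3803 CPM in group 6, while Krt5 and Krt14 were highest in group 6, at 10256 and 50176 CPM. The ratio of Krt15 to Krt5 therefore went down from 1.03 in group 1 to 0.371 in group 6 and 0.263 in group 7. In Acomys the same ratio was 0.594 in group 1, 0.479 in group 6 and 0.494 in group 7. Krt14 and Krt5 kept their ratio between 3.73 and 4.93 in all 10 Mus groups. In groups 9 and 10 both lay below their endothelium-like levels, and endothelium-like cells had a ratio of 4.10.

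**Figure D3:**
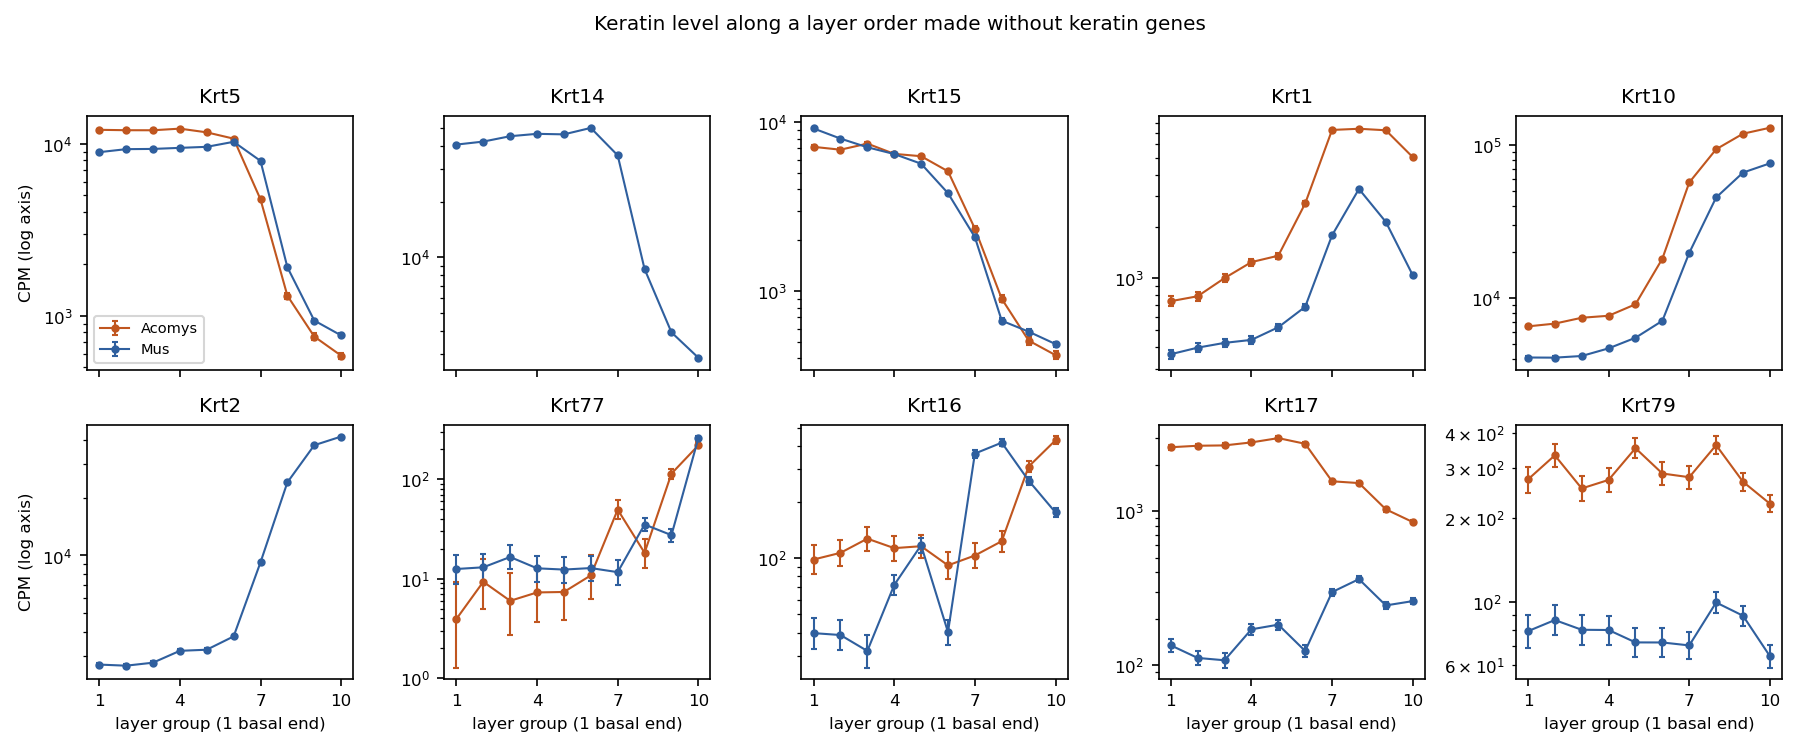
CPM (log axis) of each keratin in 10 equal groups of cells ordered by layer markers other than keratins, from the basal end (1) to the granular end (10), for Acomys (orange) and Mus (blue). Bars are exact 95% intervals from counting error. Krt5 stays level to group 6 in both species, and Krt1 is highest in group 8 while Krt10 is highest in group 10. Groups are ranks within each library, so equal numbers are not equal stages.

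In single cells pooled over the layer classes, the basal and suprabasal members ran opposite to each other. Over the basal-, suprabasal- and granular-like cells (2190 in Acomys and 4462 in Mus), the correlation of log levels between Krt5 and Krt10 was -0.84 in Acomys and -0.87 in Mus. Krt5 and Krt15 had r = 0.78 in Acomys and 0.64 in Mus. In Mus, Krt5 and Krt14 had r = 0.95 and Krt2 and Krt10 r = 0.93. Within basal-like cells alone Krt5 and Krt10 had r = 0.10 in Acomys and 0.07 in Mus, and within suprabasal-like cells -0.53 and -0.22. Krt5 and Krt15 had 0.26 and 0.02 within basal-like cells, and 0.46 and 0.18 within suprabasal-like cells. The pooled values thus include the difference between classes. These cells share 1 library per species and differ in depth, so the values describe these libraries.

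Inside the suprabasal-like class the type II chains parted. Krt1 and Krt10 had r = -0.27 in Acomys and -0.26 in Mus, and Krt1 and Krt2 had r = -0.57 in Mus, whereas Krt2 and Krt10 had r = 0.69. Early and late suprabasal clusters show the same split. The Acomys cluster of 430 cells with most remaining Krt5 (3184.5 CPM) had the highest Krt1 (9520.5 CPM) and 68013 CPM of Krt10, and the cluster of 170 cells had 4108 CPM of Krt1 and 150440 CPM of Krt10. In Mus the cluster of 563 cells had 3788 CPM of Krt1 and 51298 CPM of Krt10, and the cluster of 237 cells had 608 CPM of Krt1, 93345 CPM of Krt10 and 52323 CPM of Krt2.

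**Figure D4:**
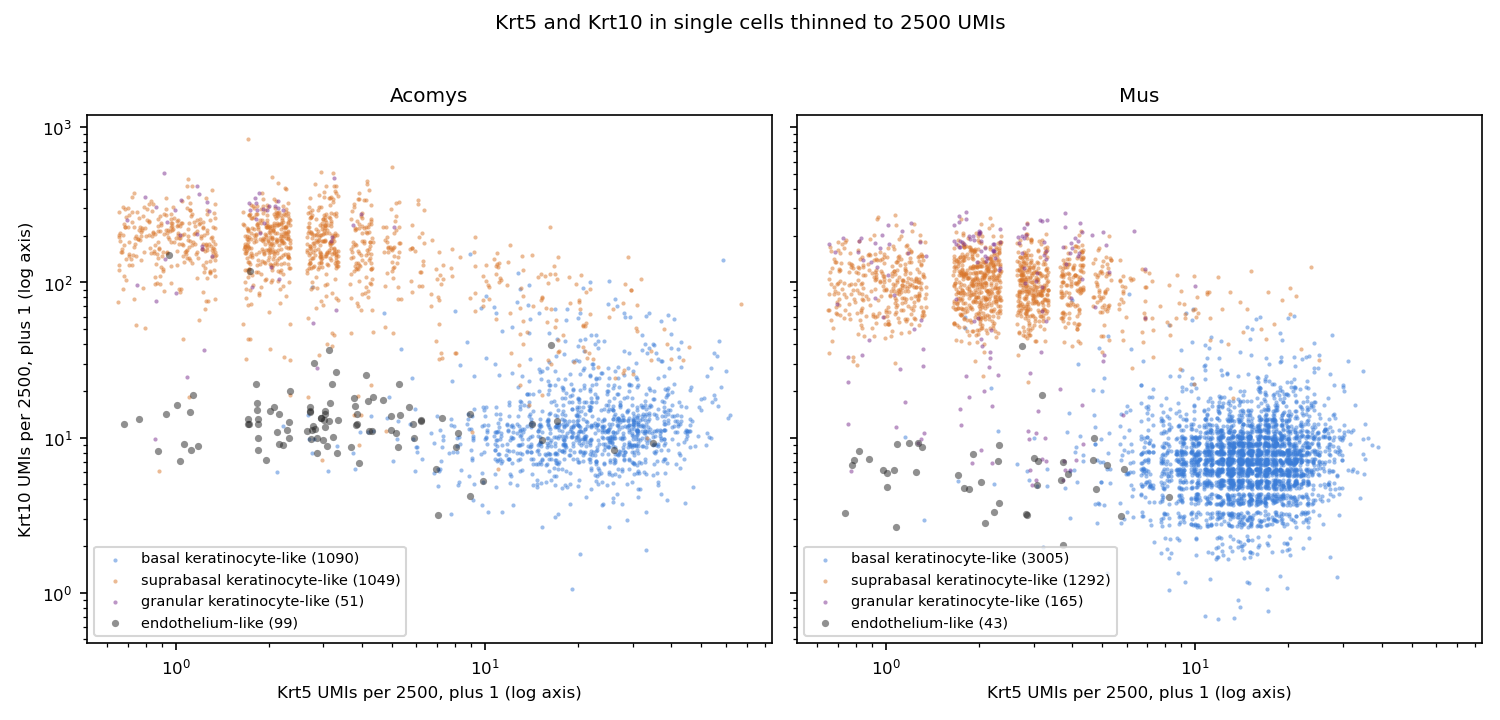
Krt10 against Krt5 UMIs in single cells thinned to 2500 UMIs (both plus 1, log axes, points spread slightly), for Acomys (left) and Mus (right), colored by class with cell numbers. Most basal-like cells lie at high Krt5 and in the Krt10 range of endothelium-like cells, with 9.54% in Acomys and 25.8% in Mus above their 95th percentile, and most suprabasal-like and granular-like cells lie at high Krt10 and low Krt5. That percentile is 25.4 UMIs in Acomys and 8.9 in Mus, so the 2 shares are not compared.

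Cells in between were counted with an index, the Krt1 and Krt10 part of the UMIs of Krt1, Krt10, Krt5 and Krt15, in thinned cells with at least 20 such UMIs. An index from 0.2 to 0.8 was called mixed. Over cells of all classes, mixed cells made 57.6% of 4033 Acomys cells (56.0 to 59.1) and 41.6% of 5472 Mus cells (40.3 to 42.9). The index had a median of 0.988 in suprabasal-like and 0.278 in basal-like Acomys cells, and of 0.980 and 0.222 in Mus. Basal-like cells were mixed in 75.8% of Acomys and 58.1% of Mus cases, more than the shares of them above background for Krt10. Mixed cells also occurred in classes named from non-epithelial markers. In Acomys they made 53.3% of 30 endothelium-like, 75% of 12 T cell-like, 55.6% of 54 fibroblast-like and 28.6% of 7 melanocyte-like cells. The Acomys fibroblast-like class also held the hair keratins Krt25 and Krt71, at 24321 and 17442 CPM. Its name therefore does not make it free of epithelial cells. In Mus they made 62.5% of 8 myeloid-like, 37.5% of 16 fibroblast-like and 0% of 3 endothelium-like cells. With 10% free RNA subtracted the shares over all classes were 31.1% in Acomys and 23.5% in Mus, of 3535 and 4686 cells. With a minimum of 1000 UMIs per cell, and thinning to 1000, they were 37.5% of 2937 Acomys cells and 14.4% of 2878 Mus cells. The cells kept, the thinning depth and the cells reaching 20 UMIs all changed in that setting. Counted against each library's own endothelium-like 95th percentile (13.1 Krt5 and 25.4 Krt10 UMIs per 2500 in Acomys, 4.9 and 8.9 in Mus), Krt5 and Krt10 were both above background in 3.37% of Acomys cells (2.87 to 3.93) and 19.4% of Mus cells (18.4 to 20.4). The thresholds differ and rest on 99 and 43 cells, so these shares are not compared.

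One Mus cluster of 430 cells, left unnamed by its markers, held both programs above background. It had 7908 CPM of Krt5, 28259 CPM of Krt14, 22640.2 CPM of Krt10, 8730.0 CPM of Krt2 and 2019 CPM of Krt1. Krt5 exceeded the 95th percentile of thinned endothelium-like cells in 84.7% of cells (80.9 to 87.9) and Krt10 in 89.3% (86.0 to 92.1). The median index was 0.667. Mixed cells made 66.8% of it. The unnamed Acomys cluster of 313 cells, rich in Krt17 and Krt79, had a median index of 0.588 and 69.0% mixed cells, but only 5.43% of its cells exceeded background for Krt5 and 15.02% for Krt10.

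Krt16 lay in different cells in the 2 species. In Acomys it stood at 1527 CPM in granular-like, 178 CPM in suprabasal-like and 116 CPM in basal-like cells, and in Mus at 64.2, 112 and 274 CPM. The endothelium-like level was 142 CPM in Acomys and 29.6 CPM in Mus, so by the CPM rule the Acomys basal-like level is read as background. The suprabasal over basal log2 difference was 0.62 in Acomys and -1.30 in Mus, and both depended on the setting. In Acomys it was -0.18 at clustering resolution 0.5 and -0.30 without the tied cluster of 170 cells. With 10% free RNA subtracted no Krt16 UMI was left in either Acomys class, so that setting gives no difference. In Mus it was 1.20 with a minimum of 1000 UMIs. The ratio between the libraries, log2 0.19, was 0.91 when every cell had equal weight.

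A few cells decided the Krt16 level. The 20 cells with most Krt16 held 34.2% of its UMIs in Acomys and 63.9% in Mus. In Acomys 11 of them were suprabasal-like and 9 granular-like, with a median of 1199 Krt10 UMIs per 10000. In Mus 12 were basal-like, all in a cluster led by mitotic genes, and the median Krt10 was 48.8 per 10000. The proliferation gene Mki67 had a median of 0.5 UMIs in those 20 Mus cells, which held 0.632% of all its UMIs. Its median was 0.0782 per 10000 in them and 0 in the other Mus cells. Those 20 Mus cells also held 38.3% of all Krt6a UMIs, 83.1% of Krt6b UMIs and 12.2% of Krt17 UMIs. Krt6a and Krt6b are known partners of Krt16 and Krt17. Without these 20 cells of each library, a setting chosen after seeing the data, the log2 difference was 0.04 in Acomys and -0.35 in Mus. They were deep cells, with a median of 25918 UMIs in Acomys and 42585.5 in Mus, and whether some are doublets that the filter missed was not tested.

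**Figure D5:**
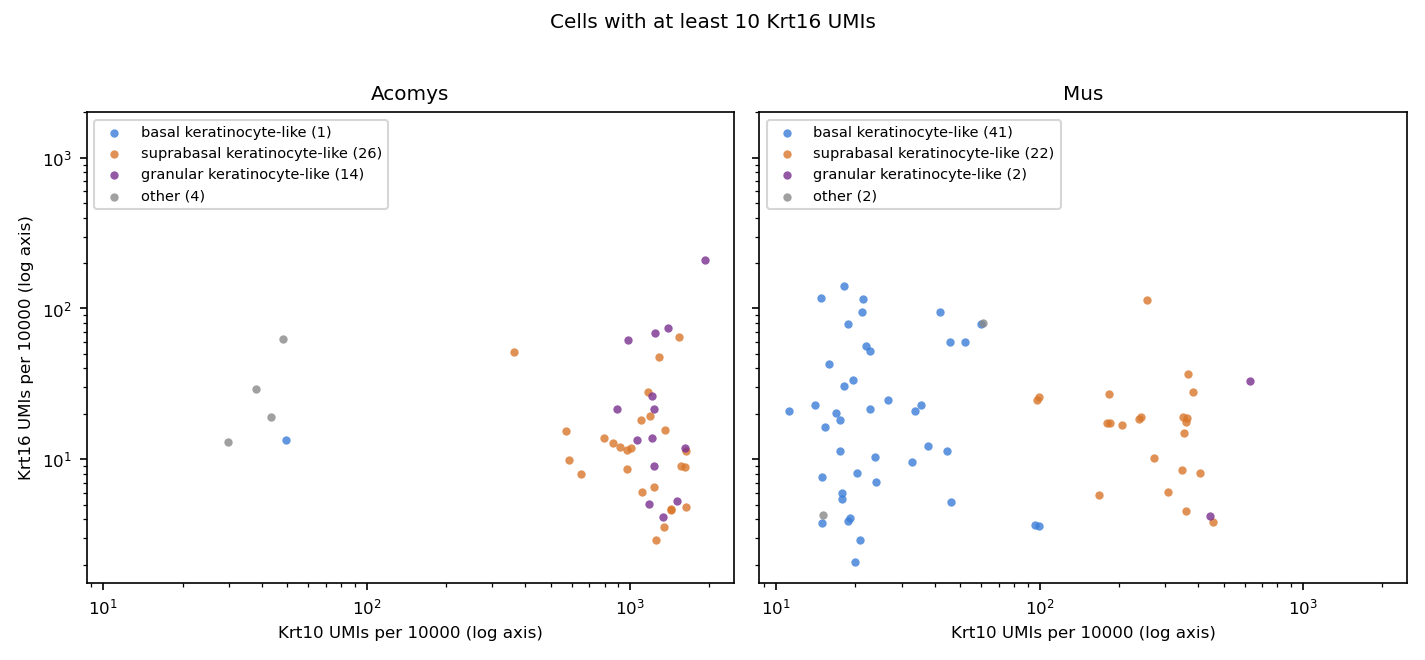
Krt16 against Krt10 UMIs per 10000 (log axes) in cells with at least 10 Krt16 UMIs, for Acomys (left, 45 cells) and Mus (right, 67 cells), colored by class. Of the Acomys cells 26 are suprabasal-like and 14 granular-like, mostly at high Krt10, and of the Mus cells 41 are basal-like, mostly at low Krt10.

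Cells with at least 10 Krt16 UMIs numbered 45 in Acomys (0.978% of cells, 0.714 to 1.31) and 67 in Mus (1.02%, 0.793 to 1.30). Their median Krt10 was 1190.04 UMIs per 10000 in Acomys and 37.8 in Mus. In Acomys 26 were suprabasal-like, 14 granular-like and 1 basal-like. In Mus 41 were basal-like, 22 suprabasal-like and 2 granular-like. This difference in place was not tested.

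Krt17 and Krt79 had their highest levels outside the layers. In Acomys both peaked in an unnamed cluster of 313 cells led by Cyp2a5 and Akr1c18, with Krt17 at 22485 CPM and Krt79 at 13572 CPM. In Mus, Krt79 peaked in a follicle-like cluster of 226 cells led by Defb6 and Cst6, at 11782 CPM, with Krt17 at 7894 CPM. Krt79 exceeded background in 88.5% (84.4 to 91.8) of cells of that Acomys cluster and in 78.8% (72.8 to 83.9) of that Mus cluster, and Krt17 in 65.5% and 42.9%. Across all cells Krt17 and Krt79 had r = 0.41 in Acomys and 0.38 in Mus. Both clusters also held Krt1, 5097 CPM in the Acomys one and 2256 CPM in the Mus one, with Krt10 at 10622 and 7763 CPM. The Acomys Krt10 value is below the endothelium-like level of 10821 CPM.

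Krt15 was highest in follicle-like cells of both species. It peaked at 20625 CPM in an Acomys cluster of 79 cells and at 27532 CPM in a Mus cluster of 74 cells, which had Krt17 at 9812.5 and 7367 CPM. Krt17 without much Krt79 marked an Acomys follicle-like cluster of 201 cells (17279.7 and 839 CPM). Over whole classes, follicle-like cells held 600.4 CPM of Krt79 in Acomys against 3562 CPM in Mus, but the Acomys cluster with most Krt79 stayed outside the class by its markers, so this difference follows the cluster names.

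In the layers, Krt17 set the libraries apart. Basal-like Acomys cells held 3036 CPM of Krt17, about the endothelium-like sum of 2984 CPM, and the median thinned cell held 4.5 UMIs against 1 in endothelium-like cells. A Krt17 UMI was held by 96.9% of thinned basal-like and 68.7% of thinned endothelium-like Acomys cells. The endothelium-like 95th percentile was 13.2 UMIs, far above the 90th of 4.2, and 2.66% of basal-like cells (1.79 to 3.80) exceeded the 95th. Krt17 and Krt5 had r = 0.58 over those basal-like Acomys cells. In Mus basal-like cells Krt17 stood at 289 CPM against 101 CPM in endothelium-like cells, the median cell held 0 UMIs, and r with Krt5 was -0.13. The suprabasal over basal log2 difference was -1.56 in Acomys and -1.52 in Mus, and 0.99 and 0.045 with a minimum of 1000 UMIs. Krt79 lay below background in the layers, where basal-like cells held 239 CPM in Acomys and 86.6 CPM in Mus against 766 and 136 CPM in endothelium-like cells.

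The rest of the keratin family was thin beside the members. Of 17 other keratins of at least 10 CPM in either library, 11 reached 2-fold or more in the Acomys direction (Krt19, Krt20, Krt25, Krt27, Krt28, Krt35, Krt40, Krt42, Krt71, Krt73 and Krt75) and 2 in the Mus direction (Krt32 and Krt78). Of all shared symbols of at least 10 CPM in either library, 14.2% and 37.4% did. The 3 most abundant in Acomys cells were Krt25, Krt24 and Krt71, at 373, 281 and 265 CPM against 0.482, 509 and 0.5003 CPM in Mus. Krt25 and Krt71 are known as inner root sheath keratins of the hair, and both peaked in an Acomys cluster of 84 cells that its markers name fibroblast-like, at 24321 and 17442 CPM. Krt27, Krt28, Krt73 and Krt75 peaked in the same cluster, so the keratins higher in Acomys are not separate differences. In Mus the most abundant were Krt24, Krt6a (274 CPM, with no symbol in the Acomys list) and Krt23. Krt23 reached 1141 CPM in granular-like cells of Acomys and 1384 CPM in those of Mus.

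Genes of the same layers, from lists chosen with earlier results known, bracket the switch. Since clusters and names came from such genes, their counts are a description. Of measured basal adhesion genes, 8 of 9 in Acomys and 10 of 11 in Mus were at least 2-fold lower in suprabasal-like cells. Among them was the integrin chain Itgb1 (log2 -3.26 in Acomys and -2.89 in Mus), which was not a naming marker. Of cornified envelope genes, 7 of 8 in Acomys and 7 of 10 in Mus were higher, among them the cross-linking enzyme Tgm1 (log2 2.35 and 2.03). Of spinous genes, 3 of 7 in Acomys and 7 of 10 in Mus were higher, Krtdap by 2.13 and 2.31 on the log2 scale. Of fate regulators, 4 of 14 in Acomys and 8 of 18 in Mus were higher and 2 and 1 lower. Grhl3 and Zfp750, known drivers of late differentiation, were higher in both species (log2 3.51 and 3.10 in Acomys, 2.73 and 2.70 in Mus), and the Notch ligand Jag2 was lower in both (log2 -3.20 and -2.67).

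The genes most like a member across all cells were ranked by r among genes seen in at least 20% of cells, with keratins left out. For Krt10 these were Gm94, Krtdap and Lgals7 in Acomys (r = 0.77, 0.77 and 0.76 over 4603 cells) and Calm4, Krtdap and Serpinb3b in Mus (0.88, 0.80 and 0.76 over 6556 cells). For Krt5 they were ACOCA10068_EIv1_0192050, ACOCA10068_EIv1_0022550 and S100a10 in Acomys (0.74, 0.65 and 0.61) and Fth1, S100a6 and Col17a1 in Mus (0.71, 0.71 and 0.67). For Krt79 they were Akr1c18, Klk7 and Cst6 in Acomys (0.53, 0.45 and 0.42) and Defb6, Mgst1 and Plin2 in Mus (0.68, 0.46 and 0.46). For Krt16 the highest r was 0.23 in Acomys and 0.20 in Mus.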

How the data were processed

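The deposited values are whole UMI counts, not normalized; the submitters' processing notes name Cell Ranger 2.2.0 and mm10. The Acomys list carries Acomys identifiers, and which Acomys build they follow is not stated. Barcodes of at least 200 genes were taken as cells from 1/10 of the UMIs at the 99th percentile of the 3000 largest. This minimum was 2872 UMIs in Acomys and 4695 in Mus. Doublets (Scrublet in scanpy 1.11.5), 183 in Acomys and 386 in Mus, were left out, as were 4 Mus cells over 20% mitochondrial UMIs. The Acomys list has 0 mitochondrial symbols and the Mus list 13, so that filter could act in Mus alone. Each library was clustered alone (2000 variable genes without keratins, 30 components, 20 neighbours, Leiden resolution 1, seed 1) and clusters were named from at least 3 markers present in 20% of cells at 1.5 times the other clusters. An Acomys tie between the suprabasal and granular lists went to suprabasal, and the endothelium-like background was added, after seeing the data. CPM, exact Poisson, conditional binomial and Clopper-Pearson 95% intervals were computed with scipy 1.17.1; log2 differences used a prior count of 0.5. Thinning drew 2500 UMIs per cell, and all cells were kept. The ratio code was tested on simulated data. With 1 library per species no test was made. All members, and the genes most like Krt5, Krt10, Krt16 and Krt79, are named; members, lists and the Krt16 cells were chosen with earlier results of these data known. Other keratins and listed genes were eligible to be named as the 3 highest or past 4-fold either way; Krt6a, Krt6b, Krt23 and Krt78 were chosen after their values were seen. Alternatives changed the UMI minimum, doublets, clustering, totals, free RNA, index and cell weights.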

Additional observations from a re-analysis of the deposited data

Results flagged for a closer look

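Several members went in opposite directions in the 2 species under the same contrast; these differences were not tested, since each species has 1 library. Krt16 in suprabasal-like over basal-like cells had a log2 difference of 0.62 in Acomys and -1.30 in Mus, and in granular-like over suprabasal-like cells of 3.10 in Acomys and -0.79 in Mus. Krt15 in granular-like over suprabasal-like cells had -0.84 in Acomys and 0.24 in Mus, where both classes lie below the endothelium-like level. Krt79 in suprabasal-like over basal-like cells had 0.11 in Acomys and -0.29 in Mus, also below that level. With a minimum of 1000 UMIs Krt79 had 3.66 in Acomys and 0.40 in Mus, and without doublet removal -0.70 in Acomys, where 5 of 9 alternatives kept the direction.

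Barcodes of 1 to 10 UMIs, used in the report only for ratios between members, held more of some members than the cells did. Krt16 stood there at 2313 CPM in Acomys, 13.3 times its level in cells, and at 338 CPM in Mus, 2.21 times. Krt17 stood there at 1257 CPM in Mus, 2.74 times its level in cells. Their source was not tested.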

How the results depend on the processing

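The 3 members at least 2-fold higher in Acomys numbered 3 under every alternative, and the 0 lower became 1 (Krt16, at 0 in Acomys, so without a ratio) with 10% free RNA subtracted. Mixed cells in Acomys made 37.5% with a minimum of 1000 UMIs, 73.1% with a range of 0.1 to 0.9, 61.7% without thinning and 31.1% with free RNA subtracted; in Mus they made 14.4%, 65.8%, 50.1% and 23.5%, and 48.5% with Krt5 and Krt10 alone. Krt10 and Krt5 kept their direction throughout. The suprabasal over basal log2 difference is given in the order Krt10 and Krt5 in Acomys, then Krt10 and Krt5 in Mus. It was 2.92, -2.99, 3.38 and -2.92 with a minimum of 1000 UMIs, 3.64, -2.76, 3.80 and -3.00 without doublet removal, and 3.57, -2.76, 3.33 and -3.08 at resolution 0.5. It was 3.70, -3.93, 3.61 and -3.16 at resolution 2, 3.64, -2.91, 3.37 and -2.86 with keratins in the clustering, and 3.74, -3.08, 3.78 and -3.05 with keratins out of the total. With free RNA subtracted it was 4.15, -4.32, 4.31 and -3.84. Of settings added after seeing the data, leaving out the tied cluster gave 3.40 and -2.96 in Acomys, and leaving out the 20 cells richest in Krt16 gave 3.59 for Krt10 in Acomys and -3.15 for Krt5 in Mus. Among 22 other member results 13 kept their direction under every alternative run, as did 10 of the 13 past 2-fold. A minimum of 1000 UMIs turned the difference to 0.99 for Krt17 in Acomys, 0.045 for Krt17 in Mus and 1.20 for Krt16 in Mus. The causes were not tested. No paired analysis was possible because each species has 1 library. Shallow cells, 51 granular-like Acomys cells and 43 endothelium-like Mus cells limit the shares of the rare members.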

Other observations

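Sebocyte-like cells, named from lipid synthesis genes such as Fasn, divided Krt79 between their clusters. In Acomys Krt79 stood at 2171 CPM in the cluster of 38 cells and at 1114 CPM in the cluster of 275 cells. In Mus it stood at 2882 CPM in the cluster of 89 cells and at 679 CPM in the cluster of 182 cells. In each species the cluster with most counted sebocyte markers (10 in Acomys, 11 in Mus) thus held more Krt79 and less Krt5 (1086 against 3101 CPM in Acomys and 1006 against 2608 CPM in Mus). Krt79 in endothelium-like cells was 766 CPM in Acomys and 136 CPM in Mus.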
